A study of Mus musculus with 22 samples.

Results

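The tumour suppressor p53, encoded by Trp53 in the mouse, and 32 genes described as its transcriptional targets were followed over all groups of an RNA-seq series on mouse embryonic stem cells (ESCs). The members were taken from a written list of 33 names, each matched to the name column of the expression table, and all 33 were found among its 18487 genes. The list was chosen with earlier results of these data known, so shares of members beside those of all genes are descriptive. The series measured poly(A)-selected RNA from E14, an established mouse ESC line, which the study's methods describe as grown in serum with LIF, the cytokine that keeps ESCs undifferentiated. There were 11 groups of 2 libraries each, and every cell carried the same E14 background. One group per compound was labelled Bromosporine, CPTH2, Chaetocin, DZNep, Garcinol, IOX1, MS023, OICR, UNC0379 or Valproate. No compound was named in the label of the remaining group, NC, with which the others were compared. Neither dose nor exposure time was given, and the study's text did not mention the compounds, so groups can be compared only as exposed. Nothing said that the 2 libraries of a group came from separate cultures, and p-values therefore measure the spread between these libraries, which may be technical.

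The compounds act on enzymes or readers of chromatin. DZNep blocks S-adenosylhomocysteine hydrolase and thereby many methyltransferases, Valproate inhibits histone deacetylases, and Bromosporine occupies the acetyl-lysine pocket of bromodomains. IOX1 inhibits 2-oxoglutarate oxygenases such as the JmjC demethylases, MS023 inhibits type I arginine methyltransferases, and UNC0379 inhibits the methyltransferase SETD8. Chaetocin is used against lysine methyltransferases, and CPTH2 and Garcinol against acetyltransferases. The label OICR gave no fuller compound name.

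p53 is a transcription factor that is held at low protein levels by the ubiquitin ligase Mdm2, itself a p53 target, and is stabilised when DNA or other parts of the cell are damaged. Once stabilised it switches on genes that halt the cell cycle, start apoptosis, repair DNA and adjust metabolism. It binds DNA as a tetramer over a pair of short palindromic half-sites. ESCs are known for abundant Trp53 mRNA and for a short G1 phase with little checkpoint control at the G1/S border.

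The members were ordered by role. Feedback and regulation held p53 itself (Trp53), its ubiquitin ligase (Mdm2), cyclin G1 (Ccng1), the p53 cofactor Trp53inp1 and the Akt inhibitor Phlda3, 5 genes in all. Cell cycle arrest and growth restraint held 5 genes, the Cdk inhibitor p21 (Cdkn1a), the antiproliferative factor Btg2, the polo-like kinases Plk2 and Plk3, and the secreted factor Gdf15. Apoptosis held 10 genes, the pore-former Bax, the BH3-only proteins Bbc3 (Puma) and Pmaip1 (Noxa), the death receptors Fas and Tnfrsf10b, the TNF receptor family member Eda2r, the membrane proteins Perp and Ei24, the nuclease Aen and the apoptosome scaffold Apaf1. DNA repair held 5 genes, the ribonucleotide reductase subunit Rrm2b, the damage sensors Ddb2 and Xpc, the translesion polymerase Polk and the endonuclease Ercc5. The other 8 were the sestrin Sesn1, the RNA-binding protein Zmat3, the phospholipid transfer protein Pltp, the sugar reductase Dcxr, the receptor kinase Epha2, the thiamine transporter Slc19a2, the adenylate kinase Ak1 and the mTOR inhibitor Ddit4l.

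The window from 250 bases upstream to 50 bases downstream of the gene start was available for 25 of the 33 members (RefSeq, GRCm38.p6). It was searched on both strands for a pair of p53 half-sites of 10 positions each, with 0 or 1 base between them, the core CNNG in each, and at most 3 mismatches over the 20 positions. Such a pair stood in 9 of the 25 windows (36%), against 3.27% of all 27025 genes with a window. The 9 genes were Ccng1, Cdkn1a, Bax, Aen, Bbc3, Dcxr, Pltp, Sesn1 and Trp53. With at most 1 mismatch, 2 members remained, Ccng1 and Cdkn1a, against 0.13% of all genes. Shown here are those closest matches, with that of Bax and that of Dcxr, the other member with a match that rose in any comparison. Each is written 5′ to 3′ on the gene's strand with the half-site pair in capitals.
Ccng1: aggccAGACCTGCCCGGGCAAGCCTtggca
Cdkn1a: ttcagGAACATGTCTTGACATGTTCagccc
Bax: tcccAGGCAAGCTTTGAACTTGCGGcaat
Dcxr: ggacAGCCTTGCCTCGGTCACGCCCactc

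The Ccng1 stretch lies at chr11:40755457-40755486 on the minus strand, and its pair begins 195 bases upstream of the start. That of Cdkn1a is at chr17:29090923-29090952 on the plus strand, where the pair begins 51 bases upstream of one of the gene's starts. The Bax pair has 2 mismatches and a base between its half-sites, at chr7:45467075-45467103 on the minus strand. The Dcxr pair has 3 mismatches, at chr11:120727382-120727410 on the minus strand. A match of letters is a description and not a binding site.

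The values are normalized read counts on which the authors imposed one distribution in every library, so that all 22 share a median of 409, and true depth is unknown. Of the 18487 genes, 17275 reached a value of 10 in at least 2 libraries and were tested, and all 33 members were among them. ESC markers were abundant throughout, with a sum over 10 genes between 210343 and 305186 in every library, and the fibroblast marker Dcn was at 0 in both libraries of each group. The summed levels of 8 fibroblast markers lay between 99 and 1938, those of 4 trophoblast markers between 165 and 756, those of 5 endoderm markers between 219 and 739, those of 4 neural markers between 1133 and 4762, and those of 3 mesoderm markers between 24 and 130. In bulk RNA, fewer cells of a type and less RNA per cell cannot be told apart.

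Most members were well expressed in NC. Divided by the length of the longest annotated transcript, the highest mean level in NC was that of Bax (9304 per kilobase), followed by Trp53 (3475) and Cdkn1a (2745). The lowest were those of Fas (12.9 per kilobase) and Pmaip1 (45.1), a pair of apoptosis genes with little RNA in these cells. This division takes the deposited values as not yet scaled by length. Transcripts of Ddb2 shared 25.6% of their 31-base stretches with other genes, and those of Pltp, Tnfrsf10b, Bax, Rrm2b, Cdkn1a and Trp53 between 9.49% and 17.4%. Reads of these genes may therefore have been split with other genes. Both strands were compared and overlapping genes were not left out, so shared stretches need not be copies elsewhere in the genome. Exons on the opposite strand overlap those of Cdkn1a, Plk3, Ei24, Rrm2b, Ddb2 and Pltp, and an exon on the same strand overlaps Bax. Whether reads were counted by strand is not given in the sources used here.

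Over the 11 groups together, 22 of the 33 members differed (limma moderated F test on log2(value + 1), Benjamini-Hochberg adjusted p under 0.05). The same test called 29.7% of all genes tested, against 66.7% of the members. Feedback genes passed in 3 of 5 cases, arrest genes in all 5, apoptosis genes in 9 of 10, and the remaining 8 in 5 cases, while none of the 5 repair genes did. The 11 that did not pass were Trp53, Trp53inp1, Tnfrsf10b, Rrm2b, Ddb2, Xpc, Polk, Ercc5, Sesn1, Pltp and Epha2. The smallest p of each role belonged to Phlda3 (adjusted p = 0.000755), Gdf15 (0.000149), Perp (5.15e-05), Ddb2 (0.0542) and Ddit4l (3.90e-05). The result for the repair genes depended on the model. When the replicate number was added as a block, the F test called 65.9% of all genes. Rrm2b (adjusted p = 0.00677), Ddb2 (0.0044), Xpc (0.000577) and Polk (0.0362) then passed, and Ercc5 (0.1) did not.

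The group with the highest mean was DZNep for 23 of the 33 members, against 21.3% of all genes tested. It was the lowest for 0 of them, against 26.5% of all genes. Bromosporine was the lowest group for 12 members, against 11.6% of all genes, MS023 for 8 (10.3%) and Valproate for 7 (15.8%). No member had its highest mean in NC (7.83% of all genes), and 3 had their lowest there (6.66%).

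**Figure D1:**
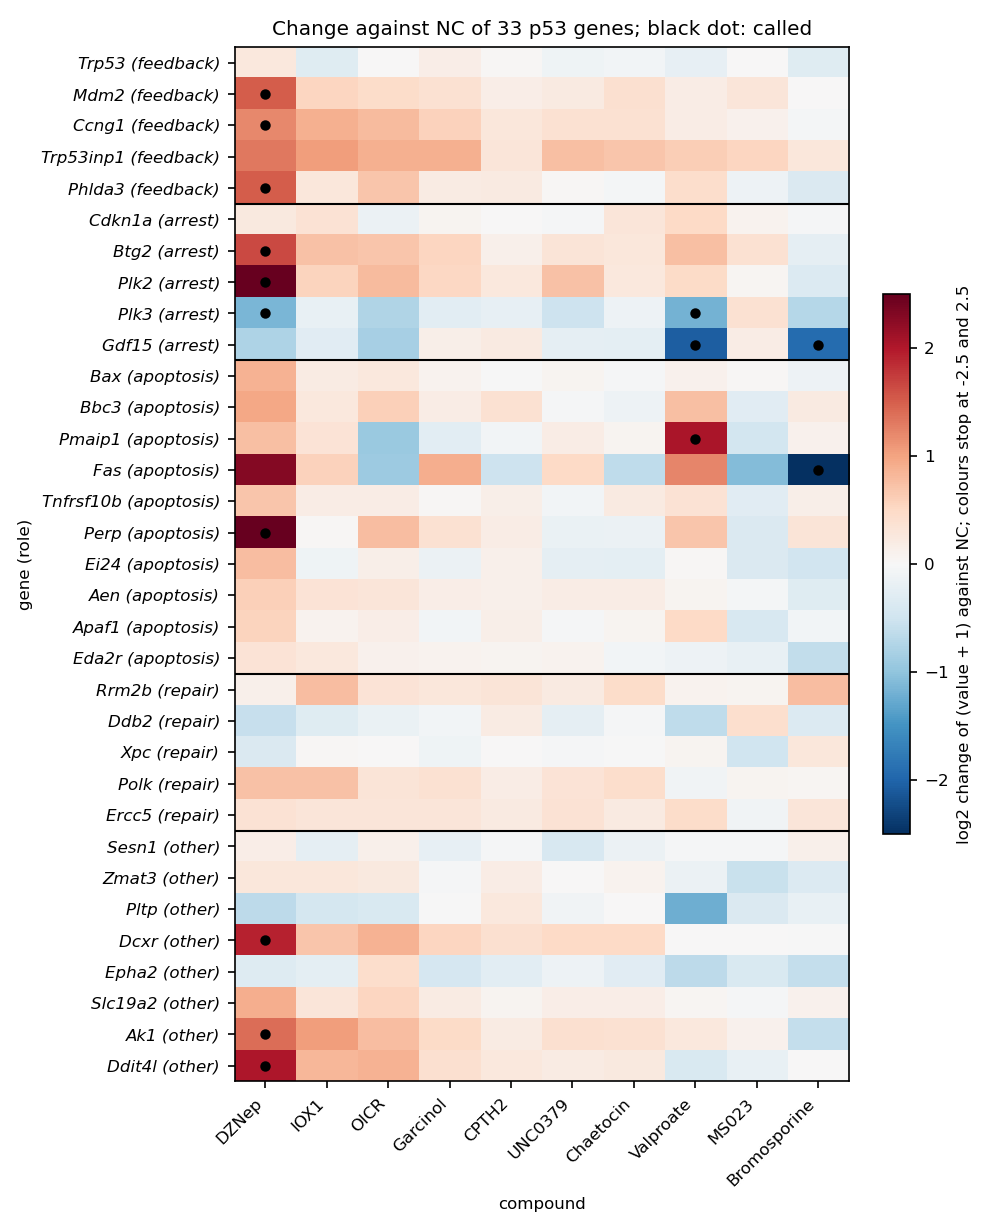
Log2 change of each of the 33 members (rows, ordered by role) against NC for each of the 10 compounds (columns), with the colour scale capped at both ends and a black dot where the change passed the test. The DZNep column holds 10 of the 15 dots and most of the dark red cells, Valproate holds 3 and Bromosporine 2, and the repair rows hold none.

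With DZNep, 9 of the 33 members rose against NC and 1 fell. A gene counted as risen or fallen at a limma adjusted p under 0.05 with a change over 2-fold, which 11.4% of all genes tested met with DZNep (5.27% up and 6.14% down) and 30.3% of the members (27.3% up). The risen genes were Perp, Plk2, Ddit4l, Dcxr, Btg2, Phlda3, Mdm2, Ak1 and Ccng1, and the fallen one was Plk3. The median change of the 33 members was 0.73 on the log2 scale, and that of all genes tested was -0.04. Both DZNep libraries lay above both NC libraries for 24 members (26.5% of all genes) and below both for 6 (32.4% of all genes), and for Rrm2b, Polk and Sesn1 the groups overlapped. At unadjusted p under 0.05 there were 24 members, against 35.4% of all genes. The 10 genes are spread over the genome (mm10, whole genes), with Perp at chr10:18845020-18857073 and Mdm2 at chr10:117688875-117710758, Ccng1 at chr11:40748552-40755311 and Dcxr at chr11:120725399-120727281, Btg2 at chr1:134075170-134079120 and Phlda3 at chr1:135766119-135769136. Plk2 lies at chr13:110395046-110400844, Ddit4l at chr3:137621612-137628333, Ak1 at chr2:32621758-32635058 and Plk3 at chr4:117128655-117133963.

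Among the feedback genes, 3 of 5 rose. Mdm2, the ligase that marks p53 for degradation, had values of 3393 and 3160 in NC and of 11537 and 7585 with DZNep, a log2 change of 1.51 (SE 0.25, adjusted p = 0.000749). The lower DZNep library stood above each of the 20 libraries of the other groups, of which the highest was 5241 with IOX1. Phlda3, which competes with Akt for membrane lipids, went from 2830 and 2623 to 6837 and 8907, a log2 change of 1.52 (SE 0.20, adjusted p = 0.000185).

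Ccng1, a cyclin that recruits a phosphatase to Mdm2 and carries one of the promoter matches shown above, had 9098 and 8718 in NC and 25694 and 16436 with DZNep. Its log2 change was 1.21 (SE 0.25, adjusted p = 0.00388). The DZNep libraries did not stand apart from all others, since 1 IOX1 library reached 17254. The rise of Ccng1 was lost without DZNep replicate 1, where the log2 change came to 0.88, and against the mean of the other 9 compounds, where it was 0.81 with an adjusted p of 0.00502.

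Trp53 itself, the transcript of the factor, had 10193 and 12565 in NC and 13113 and 14112 with DZNep. The log2 change of 0.27 (SE 0.20, adjusted p = 0.364) did not pass, although both DZNep values were above those of the other 20 libraries. Trp53inp1 had 6297 and 4394 in NC and 21953 and 7813 with DZNep, and did not pass (log2 change 1.32, SE 0.58, adjusted p = 0.123). The library numbered 1 was the higher one for Trp53inp1 in all 11 groups.

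**Figure D2:**
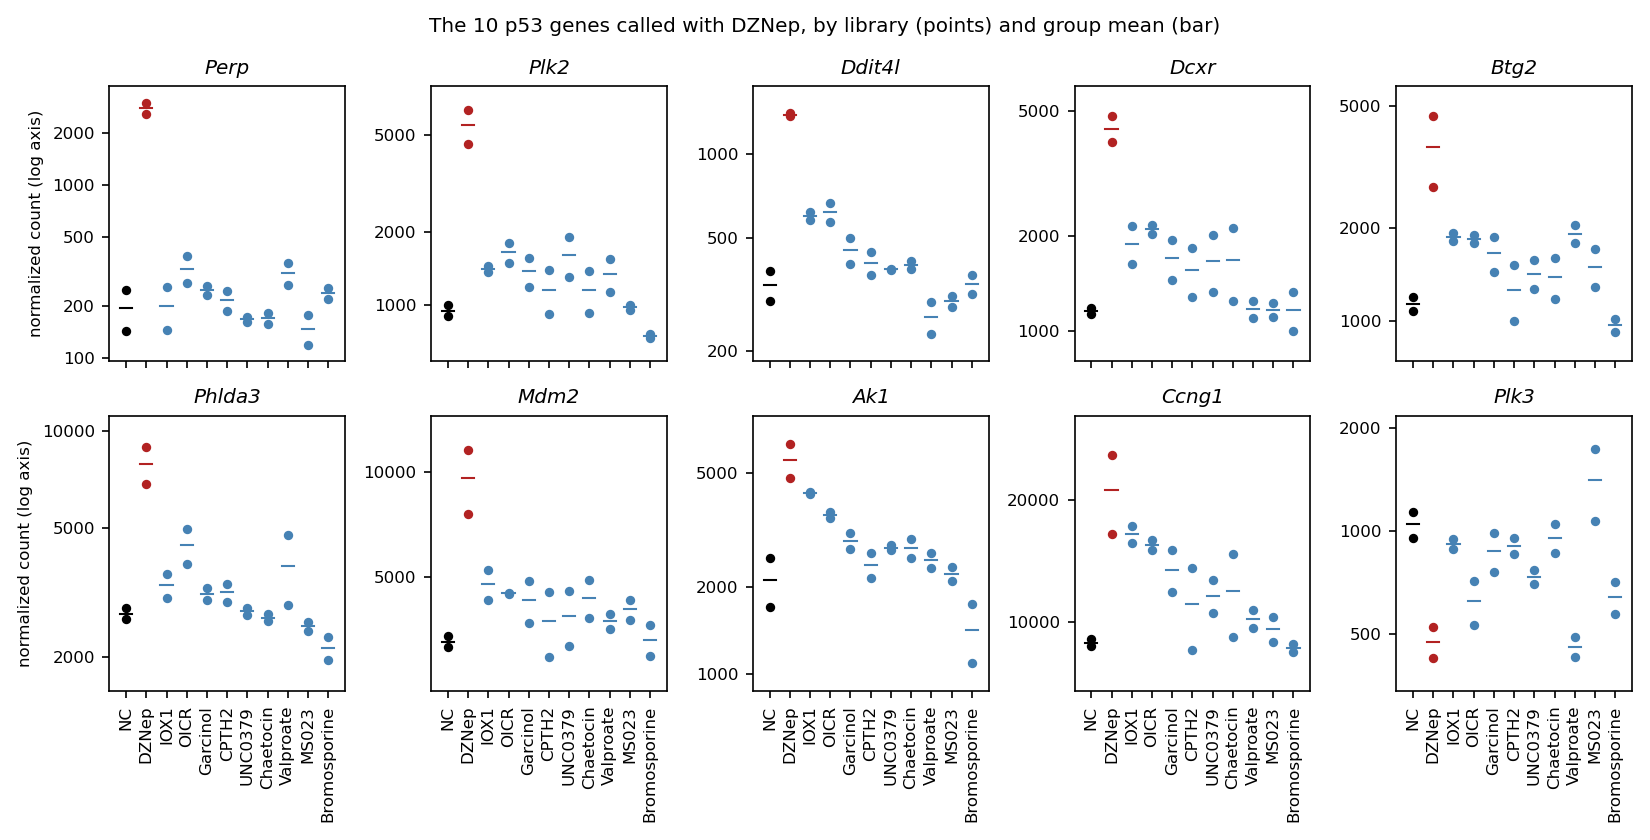
Normalized counts (log axis) of the 10 members that passed the test with DZNep, for both libraries (points) of all 11 groups, with the group mean as a bar. For 8 of the 9 risen genes both DZNep points (red) lie above all 20 others, the exception being Ccng1, where an IOX1 library reaches 17254, and for Plk3 the DZNep and Valproate points are at the bottom.

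Of the arrest genes, 2 rose and 1 fell. Plk2, a kinase induced by serum and stress, had 997 and 897 in NC and 6342 and 4578 with DZNep, a log2 change of 2.51 (SE 0.26, adjusted p = 2.63e-05). No library of any other group exceeded 1897. Btg2, which slows proliferation and promotes mRNA deadenylation, went from 1072 and 1199 to 4661 and 2732 (log2 change 1.65, SE 0.26, adjusted p = 0.000522). Its highest value outside DZNep was 2057, with Valproate.

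Cdkn1a, the p21 inhibitor that is the best known p53 target for arrest and holds, with Ccng1, the closest promoter match, did not pass. Its values were 6054 and 5364 in NC and 6843 and 6634 with DZNep, a log2 change of 0.24 (SE 0.10, adjusted p = 0.104). The groups did not overlap, yet the difference was small, and IOX1 and Valproate libraries were all higher than both DZNep libraries.

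Plk3, a polo-like kinase of the DNA damage checkpoint, moved the other way. It had 1137 and 955 in NC and 425 and 524 with DZNep, a log2 change of -1.14 (SE 0.23, adjusted p = 0.00274). The fall was lost without DZNep replicate 1 (log2 change -0.99) and against the mean of the other 9 compounds (-0.75, adjusted p = 0.00426). Gdf15, a secreted stress cytokine, had 2582 and 1801 in NC and 1148 and 1391 with DZNep. Its log2 change of -0.77 (SE 0.26, adjusted p = 0.043) was under 2-fold.

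All 10 apoptosis genes lay above both NC libraries in both DZNep libraries (26.5% of all genes), and 1 of them, Perp, passed the test with its fold limit. Perp, a tetraspan protein of cell death and of cell junctions, had the widest change of all members, from 143 and 248 to 2994 and 2577. The log2 change was 3.88 (SE 0.31, adjusted p = 6.40e-06), and the other 20 libraries did not exceed 388. A further 5 apoptosis genes had adjusted p under 0.05 with changes below 2-fold. These were Bbc3 (log2 change 0.97), Bax (0.87), Ei24 (0.78), Aen (0.60) and Apaf1 (0.56), most of them parts of the mitochondrial route to cell death. Bax, which also has a promoter match, had 9268 and 11200 in NC and 15887 and 21917 with DZNep, above every other library, with an adjusted p of 0.00202.

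The 4 remaining apoptosis genes did not pass. Fas, a death receptor with 21 in both NC libraries, had 99 and 114 with DZNep, and the highest value elsewhere was 55. Its log2 change of 2.29 carried an SE of 0.91 and an adjusted p of 0.0878, and it passed against the mean of the other 9 compounds (2.77, SE 0.68, adjusted p = 0.00687). Pmaip1, Tnfrsf10b and Eda2r had log2 changes of 0.75, 0.69 and 0.33, with adjusted p between 0.0978 and 0.12.

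None of the 5 repair genes passed. Their log2 changes ran from -0.57 (Ddb2) to 0.73 (Polk), with a median of 0.12 and a smallest adjusted p of 0.0951. Ddb2, which recognises ultraviolet lesions, had 834 and 606 in NC and 436 and 527 with DZNep. In 1 of the 5, Ercc5, both DZNep libraries were above both of NC (26.5% of all genes), and in Ddb2 and Xpc they were below (32.4%). Whether repair and apoptosis genes differed in this was not tested.

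Among the other 8 members, 3 rose. Ddit4l, which restrains mTOR signalling, had 300 and 384 in NC and 1389 and 1360 with DZNep, a log2 change of 2.01 (SE 0.17, adjusted p = 7.52e-06). Dcxr, a reductase of the xylulose pathway with a promoter match, went from 1185 and 1131 to 3998 and 4822 (1.92, SE 0.27, adjusted p = 0.000284). Ak1, which interconverts adenine nucleotides, went from 1702 and 2535 to 6320 and 4779 (1.40, SE 0.22, adjusted p = 0.000569).

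Each of these 3 genes had both DZNep values above all 20 other libraries. Slc19a2, the thiamine transporter, had 2183 and 2244 in NC and 4720 and 3675 with DZNep, with an adjusted p of 0.000334 at a log2 change of 0.91, below 2-fold. Sesn1, Zmat3, Pltp and Epha2 did not pass, with log2 changes from -0.66 to 0.29.

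In all, both DZNep libraries stood above every one of the 20 other libraries for 14 of the 33 members, among them 8 of the 9 that rose, against 8.85% of all genes tested. For 0 members both stood below, against 8.52%. Compared with the mean of the other 9 compounds, which does not use NC, 9 members were higher with DZNep and 0 lower, where 12.1% of all genes were called and 6.12% were higher. The 9 were Mdm2, Phlda3, Btg2, Plk2, Fas, Perp, Dcxr, Ak1 and Ddit4l, and the median change of the 33 members was 0.59 against -0.04 for all genes. Of the 9 members with a promoter window that were called with DZNep, 2 held a half-site pair, and of the 16 not called, 7 did. Perp, the most changed member, had no window.

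**Figure D3:**
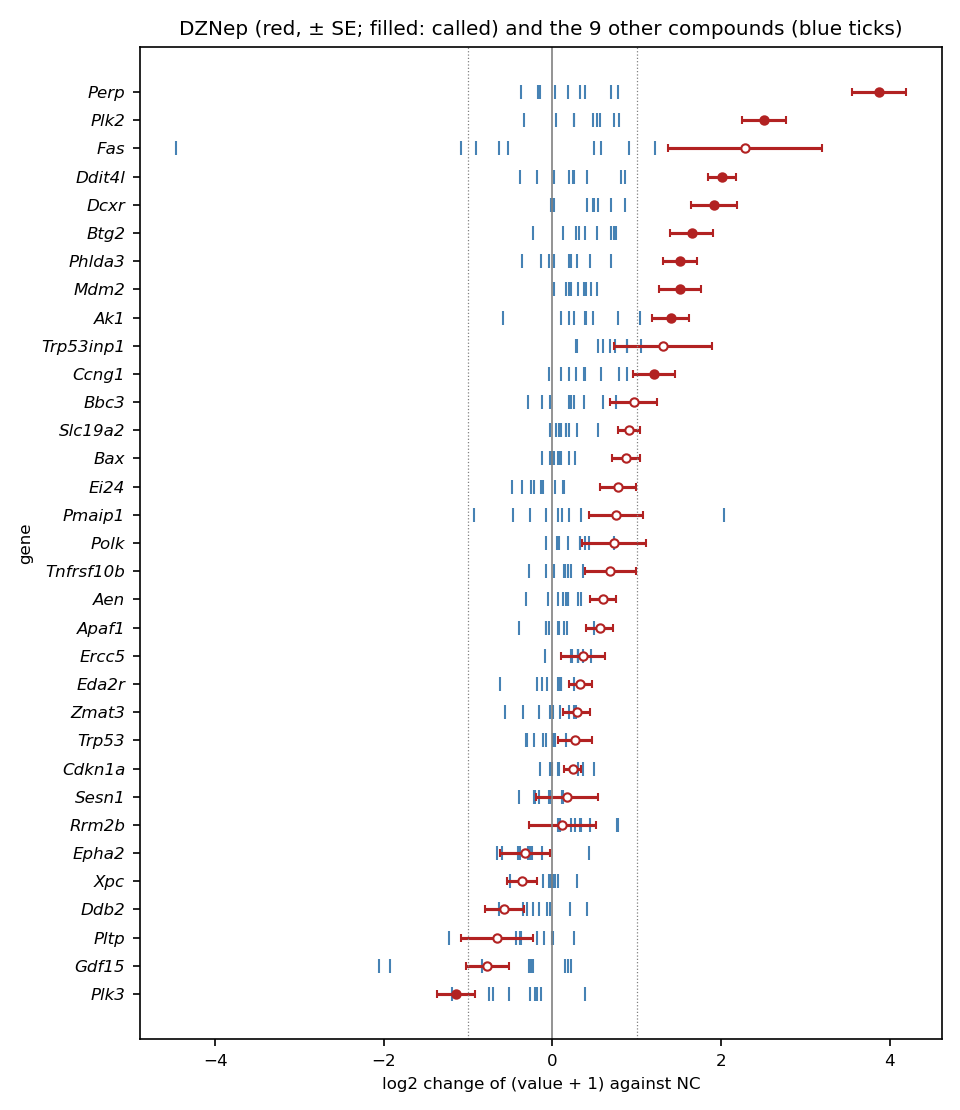
Log2 change against NC of each member, ordered by the DZNep value (red, with SE, filled where the test was passed), with the other 9 compounds as blue ticks and dotted lines at the 2-fold limits. From Perp at 3.88 to Plk3 at -1.14, the red points of the upper genes lie to the right of the ticks, while those of Plk3 and Gdf15 lie among them.

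Markers of other cell types also differed in the DZNep libraries. The sum of 8 fibroblast markers was 1669 and 1938 against 745 and 1476 in NC, with Dcn and Lum at 0 in both groups. Of 7 tested genes 2 rose, Col1a1 and Thy1. Most of the sum was Col3a1 (509 and 716 with DZNep, 4 and 743 in NC) and Postn (677 and 819, 474 and 559), which did not pass. Pdgfrb was lower with DZNep (57 and 64 against 217 and 108), without passing. The trophoblast sum was 756 and 576 against 219 and 167 (2 of 4 up), the endoderm sum 467 and 739 against 454 and 364 (2 of 5 up, 1 down) and the neural sum 3985 and 4762 against 1781 and 3428 (1 of 4 up, 1 down). The mesoderm sum was 39 and 29 against 42 and 50. ESC markers summed to 305186 and 297219 against 251460 and 244024, with 2 of 10 up (Zfp42 and Utf1) and 0 down. They did not move together. Nanog had 92251 and 123367 with DZNep against 44793 and 59405 in NC, without passing. Tdgf1 had 11541 and 8477 against 25722 and 15640, and Fgf4 and Dppa5a also lay below both NC libraries, none of them passing. The part of these cell types in the p53 gene changes was not tested.

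With Valproate, 3 members passed the test, 1 up and 2 down, or 9.09% of the members against 5.28% of all genes tested (2.73% up and 2.55% down). Pmaip1, the BH3-only protein Noxa, rose from 139 and 107 in NC to 635 and 402, a log2 change of 2.04 (SE 0.32, adjusted p = 0.00164). The next highest library was DZNep at 216. Gdf15 fell from 2582 and 1801 to 611 and 442, with a log2 change of -2.05 (SE 0.26, adjusted p = 0.000312).

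Plk3 fell with Valproate too, to 489 and 427, with a log2 change of -1.19 (SE 0.23, adjusted p = 0.00518). This fall was lost without NC replicate 1 (log2 change -1.06) and against the mean of the other 9 compounds (-0.80). Cdkn1a had its highest mean with Valproate, at 8038 and 7963 against 6054 and 5364 in NC. Its log2 change of 0.49 (SE 0.10, adjusted p = 0.00793) was below 2-fold, and in no comparison with NC did Cdkn1a pass the fold limit. Against the mean of the other 9 compounds, Pmaip1 was higher with Valproate (log2 change 2.07, adjusted p = 8.0e-05) and Gdf15 and Pltp were lower (-1.64 and -1.01), where 7.74% of all genes were called. The same 3 were called when DZNep was left out of that mean (8.66% of all genes).

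The 9 genes that rose with DZNep did not pass with Valproate. Perp had 264 and 357, Mdm2 had 3935 and 3559, and Ddit4l had 229 and 297, which was below both NC libraries. The median change of the 33 members with Valproate was 0.09, with -0.02 for all genes, and 12 members lay above both NC libraries (23% of all genes) and 6 below (27.6%). The trophoblast marker sum was 420 and 369 with Valproate against 219 and 167 in NC, with 0 of 4 called. The fibroblast sum was 1613 and 1476 against 745 and 1476 in NC. Lum and Thy1 rose (2 of 7 tested), while Pdgfrb had 59 and 54 against 217 and 108 in NC, without passing. The endoderm sum was 417 and 554 against 454 and 364 (1 of 5 up, Pdgfra). The neural sum was 1752 and 2917 against 1781 and 3428 (1 of 4 down, Sox1), and the mesoderm sum 90 and 65 against 42 and 50. Of 10 ESC markers 1 rose, Utf1. The part of these cell types in the p53 gene changes with Valproate was not tested.

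With Bromosporine, 2 members fell and 0 rose, or 6.06% of the members against 3.34% of all genes tested (0.573% up and 2.77% down). Gdf15 was 561 and 570 against 2582 and 1801 in NC, a log2 change of -1.93 (SE 0.26, adjusted p = 0.00106). Fas was listed at 0 in both Bromosporine libraries and at 21 in both NC libraries (adjusted p = 0.0128). No fold is given against a group at 0, the values are low, and the call for Fas was lost with a pseudocount of 10 and when any 1 of the 4 libraries was left out.

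Eda2r, a TNF receptor family member on the X chromosome, was 2858 and 3419 with Bromosporine against 5092 and 4545 in NC, a log2 change of -0.62 (SE 0.14, adjusted p = 0.0194) and so below 2-fold. In total 11 members lay below both NC libraries (23% of all genes) and 2 above (26.4%). The median change of the members was -0.07 against NC and -0.30 against the mean of the other 9 compounds, where that of all genes was 0.04. Against that mean 4 members were lower, Gdf15, Fas, Plk2 (log2 change -1.03, adjusted p = 0.00386) and Ak1 (-1.15, adjusted p = 0.000656), where 5.04% of all genes were called. The mean includes the high DZNep values. Without DZNep in it, 3 members were lower (4.56% of all genes), and Plk2 was not among them (log2 change -0.80). The trophoblast marker sum was 422 and 323 with Bromosporine against 219 and 167 in NC (1 of 4 up), and the fibroblast sum 740 and 657 with Dcn, Lum and Postn at 0 (1 of 7 down). Of 10 ESC markers 1 rose, Utf1. The part of these cell types in the changes with Bromosporine was not tested.

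**Figure D4:**
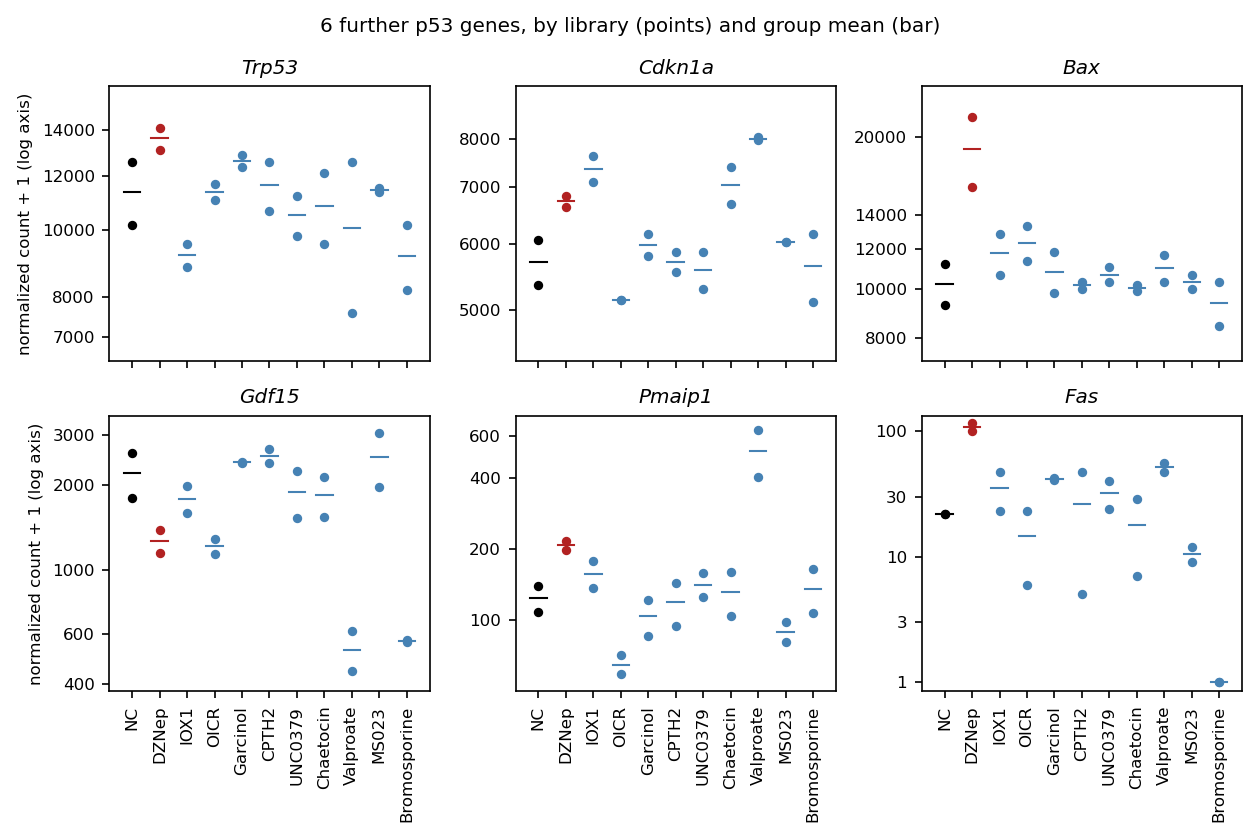
Normalized counts plus 1 (log axis) of 6 members in both libraries (points) of all 11 groups, with group means as bars. Trp53 and Cdkn1a vary little, Bax stands apart with DZNep (15887 and 21917), Gdf15 is lowest with Valproate and Bromosporine, Pmaip1 is highest with Valproate (635 and 402), and Fas is at 0 with Bromosporine.

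Gdf15 and Pmaip1 thus had orders of their own. The group means of Gdf15 formed a low pair, Valproate and Bromosporine, then OICR (1140 and 1288) and DZNep (1148 and 1391), and the libraries of the remaining groups lay between 1529 and 3042, where neighbours in the order overlapped. Those of Pmaip1 ran from OICR (58 and 70) over MS023 (80 and 97) to DZNep (216 and 197) and Valproate, and the libraries of all other groups lay between 85 and 177, where neighbours in the order overlapped. For Trp53 the libraries of all groups other than DZNep ran from 7573 to 12889, and most groups overlapped NC.

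No member passed the test with OICR or IOX1, where 0.388% and 0.116% of all genes did (limma). Without adjustment, 12 of the 33 members had p under 0.05 with OICR (10.7% of all genes) and 9 with IOX1 (12.4%). With OICR 18 members lay above both NC libraries (21.4% of all genes) and 4 below (18.7%), and the median change was 0.30 against 0.01 for all genes. With IOX1 17 lay above (19.4%) and 2 below (24.2%), and the median change was 0.29 against -0.02.

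The members that were furthest from NC with these compounds included some of those that rose with DZNep. Ddit4l had 572 and 669 with OICR, a log2 change of 0.86 (SE 0.17) whose adjusted p of 0.0379 came with less than 2-fold, and 621 and 580 with IOX1 (0.82, SE 0.17, adjusted p = 0.0816). Ak1 had 3475 and 3657 with OICR (0.78, adjusted p = 0.153) and 4234 and 4291 with IOX1 (1.04, adjusted p = 0.0867). Ccng1 had 15007 and 15924 with OICR and 17254 and 15612 with IOX1, against 9098 and 8718 in NC.

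All these contrasts share the 2 NC libraries, so a low value in NC enters each of them. Against the mean of the other 9 compounds, the median change of the members was 0.14 with OICR and 0.13 with IOX1, where those of all genes were 0.03 and -0.0012. That mean includes the high DZNep values. Without DZNep in it, the medians were 0.21 with OICR and 0.24 with IOX1 (0.03 and -0.0027 for all genes). Against the mean of the other 9, Pmaip1 was lower with OICR (log2 change -1.23, SE 0.24, adjusted p = 0.044) where 0.179% of all genes were called, also with DZNep left out of the mean (-1.17, adjusted p = 0.0477, 0.249% of all genes), and 0 members were called with IOX1 (0.486% of all genes).

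With the other 5 compounds no member passed against NC. The background share of genes passing was 0.973% with MS023, 0.0174% with Chaetocin, 0.00579% with CPTH2 and with Garcinol, and 0% with UNC0379. Of the 33 members, 3 had unadjusted p under 0.05 with MS023 (15% of all genes), 1 with Chaetocin (4.72%), 0 with CPTH2 (0.944%), 3 with Garcinol (3.62%) and 2 with UNC0379 (6.08%), counts near or below these shares except with Garcinol. MS023 was the compound with most members below both NC libraries, 12 of 33 (23.6% of all genes), and 4 above (21.8%). Its median change was -0.03 against NC and -0.31 against the other 9 compounds, where Perp, with 120 and 177, was lower (log2 change -1.03, SE 0.23, adjusted p = 0.0151) and 2.74% of all genes were called. That mean includes the high Perp of DZNep, and without DZNep the log2 change was -0.63 (adjusted p = 0.128), 0 members were called and 2.79% of all genes were. With Garcinol 13 members lay above both NC libraries (16.2% of all genes) and 2 below (17.4%), and with UNC0379 11 lay above (17.2%) and 3 below (17.6%). With Chaetocin 7 lay above (14%) and 2 below (20%), and with CPTH2 4 lay above (8.19%) and 1 below (7.96%).

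**Figure D5:**
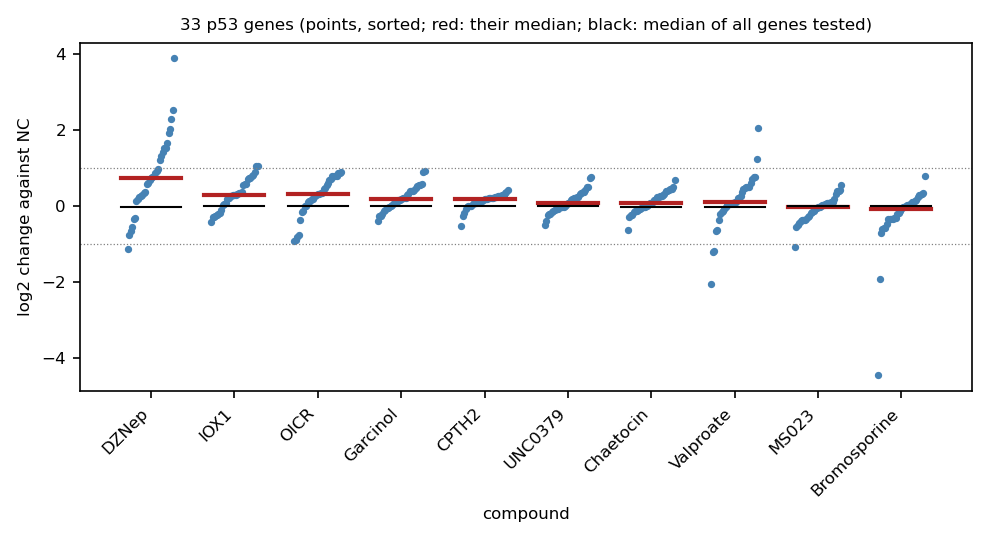
Log2 change against NC of the 33 members (points, sorted within each compound), with their median in red, the median of all genes tested in black and dotted lines at the 2-fold limits. The red line is at 0.73 with DZNep, at 0.30 and 0.29 with OICR and IOX1 and between -0.07 and 0.17 with the other 7 compounds, while the black lines stay near 0.

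The wider pathway was read from 3 further lists, also chosen with earlier results of these data known. Of 26 regulators of p53, among them Mdm4, Atm, Atr, Chek2, Usp7 and histone-modifying enzymes known to act on p53, 1 passed with DZNep, or 3.85%, which is below the 11.4% of all genes, and 0 with each of the other compounds. It was Trp73, the p53 family member p73, with 116 and 160 in NC and 785 and 877 with DZNep (log2 change 2.60, SE 0.39, adjusted p = 0.000416). At unadjusted p under 0.05 there were 7 regulators each with DZNep (35.4% of all genes) and Bromosporine (19%) and 6 with IOX1 (12.4%). There were 3 each with Valproate (24.1%), MS023 (15%) and OICR (10.7%), 2 with UNC0379 (6.08%) and 1 with Garcinol (3.62%). With Chaetocin (4.72%) and CPTH2 (0.944%) there were 0.

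Of 23 further targets outside the 33, 8 rose and 1 fell with DZNep, or 39.1% against 11.4% of all genes. The median change was 0.75, close to that of the members. The peptide transporter Tap1 went from 64 and 65 to 522 and 629 (log2 change 3.13, SE 0.31, adjusted p = 1.83e-05). The checkpoint protein Sfn (14-3-3 sigma) went from 370 and 560 to 1476 and 1844 (1.86, SE 0.22, adjusted p = 7.16e-05). Dram1, which links p53 to autophagy, had 0 and 4 in NC against 59 and 53 with DZNep (adjusted p = 0.0397).

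Gtse1, Pidd1, Cpt1c and Lif were also among the targets that rose with DZNep, and the one that fell was Trp53cor1, a non-coding RNA. With Valproate 1 of the 23 rose (4.35% of the list, 5.28% of all genes called), Sfn at 1146 and 1827 (log2 change 1.67, SE 0.22, adjusted p = 0.000434), and with Bromosporine 1 fell (4.35%, against 3.34% of all genes), the cyclin Ccnd1, from 3394 and 4050 to 1177 and 1931 (-1.30, SE 0.29, adjusted p = 0.0194). Among the other 7 compounds 0 passed. At unadjusted p under 0.05 there were 8 of the 23 with IOX1 (12.4% of all genes), 6 with OICR (10.7%), 4 with Garcinol (3.62%) and 2 with MS023 (15%). There was 1 each with CPTH2 (0.944%) and UNC0379 (6.08%), and 0 with Chaetocin (4.72%).

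The third list held 16 cell cycle genes, such as Ccnb1, Cdk1 and Plk1, that the DREAM repressor complex turns down when p53 and p21 are active. None passed with any compound (limma). With DZNep their changes ran from -0.87 to 0.33 on the log2 scale with a median of -0.17, and 3 had unadjusted p under 0.05 (35.4% of all genes). With Valproate the median was -0.26 and 3 had unadjusted p under 0.05 (24.1% of all genes), with MS023 -0.24 and 6 (15%), with IOX1 0.03 and 1 (12.4%), and with the remaining 6 compounds 0 had.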

How the data were processed

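RNA from 22 E14 libraries was measured, grouped by the treatment labels and sample titles. Per gene and library the authors deposited a score, a normalized read count rounded to a whole number. The submitters' processing notes name Bowtie2 2.2.5, RSEM and mm10, and the study's methods name EDASeq at its full setting. All libraries had the same median (409) and largest value (221616), and totals between 38403767 and 38419709. Such quantile normalization hides depth and can make values identical between libraries, and no interval that needs depth was given. The authors used DESeq2, which needs raw counts, so limma was used here. A second deposited table of scores held the authors' group means, which differed from means of the first by at most 0, and was not tested. Of all per-sample columns, 0 were unmatched.

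The log2(value + 1) of each gene was fitted with limma 3.58.1 under R 4.3.3 (lmFit, eBayes with trend, 11 group means, 22 libraries, 11 residual degrees of freedom). A fold change is on that scale and understates changes of low genes. Genes with at least 10 in at least 2 libraries were tested. P-values were two-sided and adjusted by Benjamini-Hochberg over all genes tested within each contrast, and a gene was called at adjusted p under 0.05 with a fold over 2. The members and lists were chosen with earlier results of these data known. Full values were given for members called with a compound, for Trp53, Cdkn1a, Mdm2 and Ccng1 and for the member of each role with the smallest F test p, and up to 3 called genes per further list and compound. Other members given with values were named after these had been seen. The lists named 26 regulators, 24 further targets (23 in the table) and 16 DREAM genes. A gene counted among the further targets is not reported here by name. Positions, transcript lengths and shared 31-base stretches came from GENCODE M21 (mm10) and promoter windows from RefSeq. The fit was tested on simulated data with independent errors in each library and no difference by replicate number. Python 3.11.15, pandas 2.3.3 and matplotlib 3.10.9 were used for sequences and plots. The results were recomputed without the filter, with a pseudocount of 10, on the 4 libraries of a compound and NC alone, with a replicate block, with adjustment over all 10 contrasts, with the mean of the other 9 compounds as reference (also without DZNep, chosen after seeing the data), with another scaling and leaving out each library.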

Additional observations from a re-analysis of the deposited data

How the results depend on the processing

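Each count of called members was recomputed under 11 alternatives and, except for DZNep, against the mean of the other 8 compounds without DZNep, chosen after seeing the data. Fitting the 4 libraries of a compound and NC alone, with 2 residual degrees of freedom, gave 0 calls with DZNep and with Valproate and 1 with Bromosporine. With Bromosporine the count was also 1 with a pseudocount of 10, 4 against the mean of the other 9 compounds and from 1 to 1 when any 1 library was left out. Against that mean, MS023 and OICR had 1 call each, and without DZNep in it OICR had 1 and MS023 had 0. IOX1 had 1 call (Ak1) when p-values were adjusted over all 10 contrasts. Leaving out a library gave 10 to 13 calls with DZNep, 2 to 3 with Valproate and 0 to 1 with OICR, the call there coming without NC replicate 2. The counts with Chaetocin, CPTH2, Garcinol and UNC0379 stayed at 0 under all 12. Of 55 changes recomputed, 4, none of them called against NC, changed sign: Rrm2b with DZNep (-0.25 against the mean of the other 9, and -0.079 to 0.32 when a library was left out), Sesn1 with DZNep (-0.28 to 0.63 when a library was left out), Mdm2 with Valproate (-0.25 against the mean of the other 9, -0.12 without DZNep in it) and Perp with MS023 (-0.76 to 0.027 when a library was left out). The F test called 19 to 22 members when any 1 library was left out. With the replicate number as a block, it called 31 of the 33 members, all but Ercc5 and Sesn1, and 65.9% of all genes. That block gave 12 calls with DZNep (adding Trp53inp1 and Fas; 15.1% of all genes), 4 with Valproate (adding Pltp; 8.61%), 2 with Bromosporine (6.88%) and 2 with IOX1 (Trp53inp1 and Ak1; 1.26%). The numbers were not counted as pairing the samples, since the labels do not say what a number marks. Deviations from the group means correlated positively between same-numbered libraries in all 55 pairs of groups, from 0.0535 to 0.298. The main fit holds no term for the number, so the calls that change with the block depend on this choice. By the values themselves, 20 of 22 libraries correlated best, outside their group, with a library of their own number. This is a hint from the data and not the design. Among the further targets the block gave 3 rises with Valproate in place of 1 and 1 with MS023 (Gadd45a) in place of 0. Depth is unknown, so low genes such as Fas have no detection limit.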

Other observations

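Trp53inp1, Rrm2b, Xpc and Polk were higher in the library numbered 1 in all 11 groups (4 members, 8.75% of all genes tested), and Trp53, Bax and Sesn1 were lower in it in all 11 (3 members, 12.3%). The median log2 difference, number 1 minus number 2, was 0.68 for Trp53inp1 and -0.19 for Trp53. The labels do not say what a number stands for. These counts of members are near the shares of all genes.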
